A study of Mus musculus with 9 samples.

Results

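Cytochrome P450 enzymes of families 1 to 4 were followed across lung tumours of mice that differed in the number of floxed Smarca4 alleles. The members were every gene symbol in the deposited table that begins with Cyp, a family number from 1 to 4, a subfamily letter and a number. This rule found 82 of 23224 genes, in 21 subfamilies, among them 5 pseudogenes. Of the 82 members, 24 had no counts in any of the 9 libraries, 22 had counts too low to test (at most 39 estimated counts over all libraries) and 36 were tested.

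All mice carried Trp53fl/fl alleles and the Rosa26LSL-TdTom reporter, on a mixed B6;129S2 background. The groups were KP with Smarca4+/+ (n = 4), KPS-HET with Smarca4fl/+ (n = 2) and KPS with Smarca4fl/fl (n = 3), where Smarca4 encodes BRG1, the motor of BAF chromatin remodelling complexes. Tumours of all groups were started by instilling adenoviral Cre into the trachea. Its CCSP promoter is that of a club cell gene of the airway, which limits the cells in which recombination starts. The Smarca4 wild-type controls received the same virus and carried the same floxed Trp53 alleles. Lungs were taken when the mice were moribund, cancer cells were sorted by FACS and polyA RNA was sequenced in bulk. The labels give no ages and do not say whether any libraries share a mouse.

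Cytochrome P450s of these families are haem enzymes of the endoplasmic reticulum that insert oxygen into their substrates, with electrons passed on by P450 oxidoreductase (Por). Families 1 to 3 oxidise drugs, pollutants and steroids, and many members of families 2 and 4 act on arachidonic acid, its products and other fatty acids. Most members are best known from liver, but club cells of the mouse airway hold large amounts of a few of them, above all Cyp2f2.

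Library totals ran from 12600000 to 37100000 estimated counts, rounded to 3 significant digits. Levels are given as CPM, the counts of a gene per 1000000 counts of its library, after scaling between libraries by the TMM method. Smarca4 ranged over 110 to 137 CPM in the KP libraries, 76.4 to 97.2 CPM with 1 floxed allele and 39.9 to 55.5 CPM with 2. The surfactant gene Sftpc, which marks alveolar type 2 cells, ran from 39261 to 70280 CPM in KP and from 9915 to 33310 CPM in KPS, without overlap (-1.08 ± 0.39 on the log2 scale, adjusted p = 0.126).

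Markers of several other cell types moved with the groups, while those of others did not, and their part in the P450 differences was not tested. Of all 15663 genes tested in KPS against KP, 7.24% were called (adjusted p below 0.05), 3.96% higher and 3.28% lower. Of 20 alveolar type 2 markers 3 were called lower and 1 higher in KPS than in KP (median log2 fold change -0.66), with sums of 78887 CPM or more in KP and of 66591 CPM or less in KPS. Of 20 macrophage markers 4 were called, all higher (median 3.12, 18 of 20 positive). Most of their sum in every library but KPS replicate 1 was Lyz2, which alveolar type 2 cells also express. Without it, a step chosen after seeing the data, the sum of 19 genes ran from 283 to 415 CPM in KP, was 1812 and 312 CPM in KPS-HET and was 6576, 872 and 1875 CPM in KPS. The sums of endothelial markers (median 1.90, 2 of 13 called, both higher), fibroblast markers (median 2.04, 2 of 11 called, both higher) and red blood cell markers (median 2.38, 1 of 2 called, higher) were also above KP in every KPS library. They ran from 38.5 to 57.4, 44.3 to 111 and 1.87 to 11.8 CPM in KP, and from 59.4 to 175, 243 to 346 and 51.8 to 73.8 CPM in KPS. Sums overlapped between KPS and KP for alveolar type 1 markers (median 0.13, 1 of 14 called, higher) and T and NK cell markers (median 0.00, 0 of 4 called). The same held for neutrophil markers (median 1.42, 1 of 8 called, higher) and B cell markers (median 0.97, 1 of 3 called, lower). Ciliated cell markers were negative in 13 of 13 (median -0.59), with 0 called. Their sums nearly touched, at 571.9 to 1201 CPM in KP and 543 to 571.8 CPM in KPS. Smooth muscle and mesothelial markers (median -0.06, 1 called higher and 1 lower of 7) summed to 266 to 594 CPM in KP and 1090 to 2527 CPM in KPS.

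Among tested members, the lowest values in KPS relative to KP were those of Cyp2c68 and Cyp2c67. Both lie in a run of near-identical Cyp2c genes, so the stretches before the starts of its genes are shown first. Cyp2c67, Cyp2c68, Cyp2c40 and Cyp2c69 lie next to each other on mouse chromosome 19, all on the minus strand. Each line gives 105 bases upstream of the RefSeq start in build GRCm38.p6, read 5′ to 3′, and the capitals mark CAAAGTCCA, a core sequence bound by nuclear receptors of the HNF4 family. The stretches are chr19:39649123-39649227 for Cyp2c67, chr19:39741134-39741238 for Cyp2c68, chr19:39812815-39812919 for Cyp2c40 and chr19:39886800-39886904 for Cyp2c69. The counts themselves were made on another build, mm9.
Cyp2c67: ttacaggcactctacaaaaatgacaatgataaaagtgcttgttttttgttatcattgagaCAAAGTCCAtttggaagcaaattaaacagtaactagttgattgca
Cyp2c68: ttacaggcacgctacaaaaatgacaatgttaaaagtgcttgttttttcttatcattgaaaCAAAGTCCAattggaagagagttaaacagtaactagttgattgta
Cyp2c40: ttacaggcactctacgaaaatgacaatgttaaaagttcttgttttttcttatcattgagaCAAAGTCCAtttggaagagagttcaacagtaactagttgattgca
Cyp2c69: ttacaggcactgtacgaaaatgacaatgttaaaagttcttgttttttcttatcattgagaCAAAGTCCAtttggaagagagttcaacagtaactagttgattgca

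The 4 stretches differed from each other at 1 to 9 of their 105 bases, and Cyp2c40 and Cyp2c69 were the closest pair. The capitals begin 125 bases before the start of Cyp2c67 (position -125), and at -77, -45 and -75 for Cyp2c68, Cyp2c40 and Cyp2c69. On either strand of the 250 bases upstream, CAAAGTCCA was found in 10 of the 62 members that have a RefSeq promoter (16.1%) and in 126 of 32851 promoters in all (0.384%). A member counted once if any of its promoters had a match, while the share in all counted each promoter separately. These shares are thus in unlike units. The other members with CAAAGTCCA were Cyp2c65, Cyp2c70, Cyp3a11, Cyp3a16, Cyp3a41a and Cyp3a41b. Of the 31 tested members with a promoter, 6 held it, and 4 of those are the run shown above. In KPS against KP, Cyp2c67, Cyp2c68 and Cyp2c40 had negative log2 fold changes. Those of Cyp2c65 (2.30), Cyp2c70 (1.02) and Cyp2c69 (0.07) were positive and not called. A link between the core and the levels was not tested.

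Another 5 motifs were searched and counted in the same way. TATAAA, the TATA box, was in 26 of the 62 members (41.9%) and in 12.4% of all promoters. TGTTTAC, a core for FOXA factors, was in 8 members (12.9%) against 3.17% of all promoters. TTGCNNAA, a core for C/EBP factors, was in 14 (22.6%) against 9.56%. CAAGTG, a core for the lung factor NKX2-1, was in 11 (17.7%) against 11.6%, among them Cyp2f2. GCGTG, the core for the dioxin receptor AHR and its partner ARNT, was in 12 (19.4%) against 28.2%, among them Cyp1a1, Cyp1b1 and Cyp4f16. The Cyp2c run shown above also held other motifs than the capitals. CAAGTG was in Cyp2c68, Cyp2c40 and Cyp2c69, TTGCNNAA in Cyp2c67 and Cyp2c69, TATAAA in Cyp2c67 and GCGTG in Cyp2c68. A match describes the letters only, and neighbouring paralogs share much of their upstream sequence.

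The first question was which P450 genes differed between KPS tumours, with 2 floxed Smarca4 alleles and reduced Smarca4 mRNA, and KP tumours. Cyp2c67, Cyp2c68, Cyp4f16 and Cyp4f40 were lower in KPS than in KP and no member was higher. These 4 of 36 tested members (11.1%) compare with 7.24% of all 15663 genes tested that were called at an adjusted p below 0.05, with 3.28% called lower and with 3.96% called higher. DESeq2 called 5 members where it called 14.9% of all genes, and limma-voom 2 where it called 7.2%. The median log2 fold change of the tested members was -0.24, against 0.01 over all genes tested. Setting the 3 members that had no counts in KPS to their bounds cannot move this median, since they stay below it. The libraries of KPS and KP did not overlap in 8 members (22.2%), all lower in KPS, against 21.8% of all genes in either direction and 10.1% lower. In these bulk samples fewer cells of a type and less RNA per cell cannot be told apart.

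**Figure D1:**
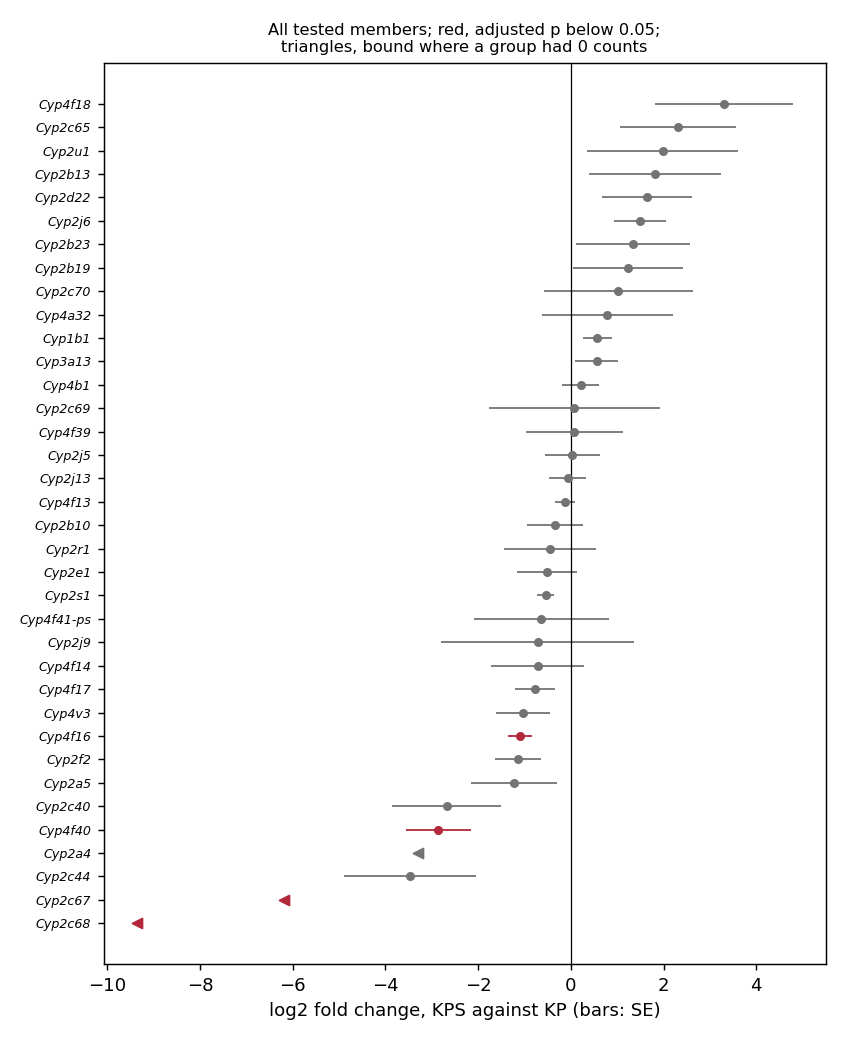
Log2 fold change of the 36 tested members in KPS against KP (x axis) with SE bars, 1 line per gene, ordered by value. Red marks the 4 members with an adjusted p below 0.05, and triangles mark the bound for the 3 members without counts in KPS (Cyp2a4, Cyp2c67 and Cyp2c68). Cyp2c68 lies farthest to the left and no member on the right is red.

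Cyp2c68, an enzyme of the drug and arachidonic acid metabolising Cyp2c subfamily, stood at 11.0, 4.64, 69.6 and 17.2 CPM in the 4 KP libraries. It stood at 5.69 and 14.8 CPM in the 2 KPS-HET libraries and had no counts in any of the 3 KPS libraries. Every KP and KPS-HET library was above every KPS library, and KP replicate 3 held most of the KP counts. Against a floor of 3 counts over the KPS group, Cyp2c68 was at least 661.6-fold lower than in KP (adjusted p = 0.014). This bound takes the division of reads among near-identical genes as given. Leaving out KP replicate 3 lowered this bound to 323-fold, and leaving out KPS replicate 1 to 360-fold. In limma-voom the gene was not called (adjusted p = 0.153).

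Its neighbour Cyp2c67 gave 1.58, 0.60, 6.89 and 2.10 CPM in KP, 0.64 and 1.21 CPM in KPS-HET and no counts in KPS. The pattern over libraries was that of Cyp2c68 at a lower level, with KP replicate 3 highest and no overlap between KPS and the other groups. It was at least 72.8-fold lower in KPS than in KP (adjusted p = 0.017). This bound fell to 41.3-fold when KP replicate 3 was left out and to 39.6-fold when KPS replicate 1 was.

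Cyp2c40, known in mouse for hydroxylating arachidonic acid, stood at 4.54, 1.81, 6.03 and 4.55 CPM in KP and at 5.09 and 2.41 CPM in KPS-HET. The KPS libraries gave 0, 1.75 and 0.26 CPM, all below the lowest KP library. The log2 fold change of -2.68 ± 1.17 (SE) did not pass the test (adjusted p = 0.195). Cyp2c69, the last gene of the run, was near the limit of detection, with 1.01, 0, 0.17 and 0 CPM in KP, 1.28 and 1.51 CPM in KPS-HET and 0, 0 and 0.92 CPM in KPS.

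Reads of these genes are hard to keep apart, and the bounds above do not cover errors in dividing reads among them. Their GENCODE transcripts are 96.4% to 98.0% identical, and of all stretches of 50 bases in them, 43.3% (Cyp2c68) to 72.1% (Cyp2c40) also occur in another P450 transcript. The values were therefore also summed over the 4 genes, a step chosen after seeing the data. The sum was 18.1, 7.05, 82.7 and 23.8 CPM in KP, 12.7 and 19.9 CPM in KPS-HET and 0, 1.75 and 1.18 CPM in KPS. The lowest of the KP and KPS-HET libraries was thus above the highest KPS library for the run as a whole. No test was made on the sum.

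**Figure D2:**
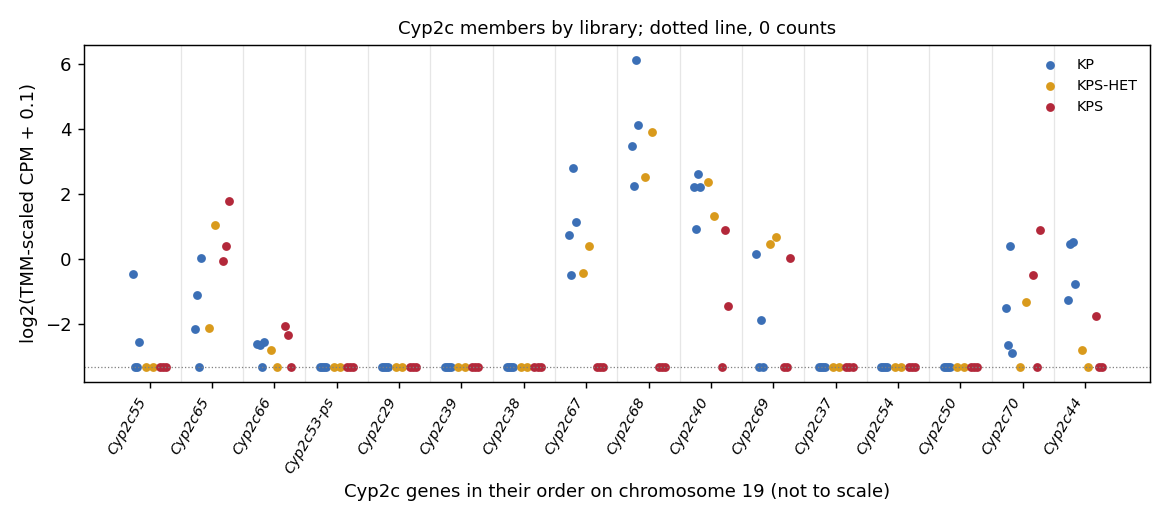
All 16 Cyp2c members in their order along chromosome 19 (x axis, not to scale) with log2(TMM-scaled CPM + 0.1) of each library (y axis), coloured by group. The KP and KPS-HET points of Cyp2c67 and Cyp2c68 stand above the dotted line of 0 counts while all 3 KPS points lie on it.

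The rest of the subfamily was low. Of 16 Cyp2c members, 7 had no counts in any library, all of them outside the run of 4. Cyp2c44, an arachidonic acid epoxygenase, gave 0.32, 1.26, 1.32 and 0.49 CPM in KP, 0.04 and 0 CPM in KPS-HET and 0.19, 0 and 0 CPM in KPS. KP did not overlap either other group, and neither difference passed the test (adjusted p = 0.170 for KPS and 0.974 for KPS-HET). Cyp2c65, a mainly intestinal enzyme in mouse, stood between 0 and 0.91 CPM in KP, at 0.13 and 1.96 CPM in KPS-HET and between 0.85 and 3.33 CPM in KPS, with overlap and no call (log2 fold change 2.30 ± 1.25, adjusted p = 0.296). Cyp2c70, the mouse enzyme that makes muricholic acids, reached at most 1.75 CPM.

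Albumin (Alb) is named, after its values were seen, because it had the same high library. It stood at 62.0, 18.2, 610 and 125 CPM in KP, 33.1 and 128 CPM in KPS-HET and 8.56, 3.06 and 1.54 CPM in KPS (adjusted p = 0.046). Of 15 tested hepatocyte markers other than P450s, 5 were lower in KPS than in KP, against 3.28% of all genes, and none higher. Their median log2 fold change was -3.03. Summed over the 26 markers in the table, the level ran from 3399 to 9027 CPM in KP, from 3032 to 3689 CPM in KPS-HET and from 678 to 838 CPM in KPS, most of it transferrin (Trf). The defining hepatocyte enzymes Tat, Hpd and G6pc had no counts in any library, and Cps1 stayed below 0.1 CPM.

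In the Cyp4f subfamily, whose enzymes hydroxylate leukotriene B4 and other fatty acids at or near the end of the chain, Cyp4f16 and Cyp4f40 were lower in KPS than in KP. Cyp4f16 stood at 31.2, 31.6, 30.5 and 40.4 CPM in KP, 24.9 and 26.2 CPM in KPS-HET and 23.5, 11.7 and 11.6 CPM in KPS. All KP libraries were above both KPS-HET libraries, which were above all KPS libraries. KPS-HET against KP was not called (-0.39 ± 0.30, adjusted p = 0.974). How many of all genes had their groups separate in this order was not counted. The log2 fold change of KPS against KP was -1.10 ± 0.27 (SE, adjusted p = 0.036). The call depended on which libraries were used, since the adjusted p lay between 0.052 and 0.111 when any of the KP libraries, either KPS-HET library or KPS replicate 2 or 3 was left out. Those fits gave fold changes between -1.16 and -0.94, and the fit without KPS replicate 1 gave -1.56 (adjusted p = 0.0047).

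Cyp4f40 gave 3.78, 3.67, 9.53 and 2.66 CPM in KP, 2.53 and 2.19 CPM in KPS-HET and 0.77, 1.02 and 0.22 CPM in KPS. The groups were again separate and in the same order, with KP replicate 3 far above the other KP libraries. The lowest KP library (2.66 CPM) lay close to the highest KPS-HET library (2.53 CPM), and KPS-HET against KP was not called (-1.06 ± 0.75, adjusted p = 0.974). The log2 fold change of KPS against KP was -2.86 ± 0.70 (adjusted p = 0.038). It was -2.34 without KP replicate 3, and the call was lost (adjusted p between 0.054 and 0.094) when any 1 library other than KP replicate 4 was left out.

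**Figure D3:**
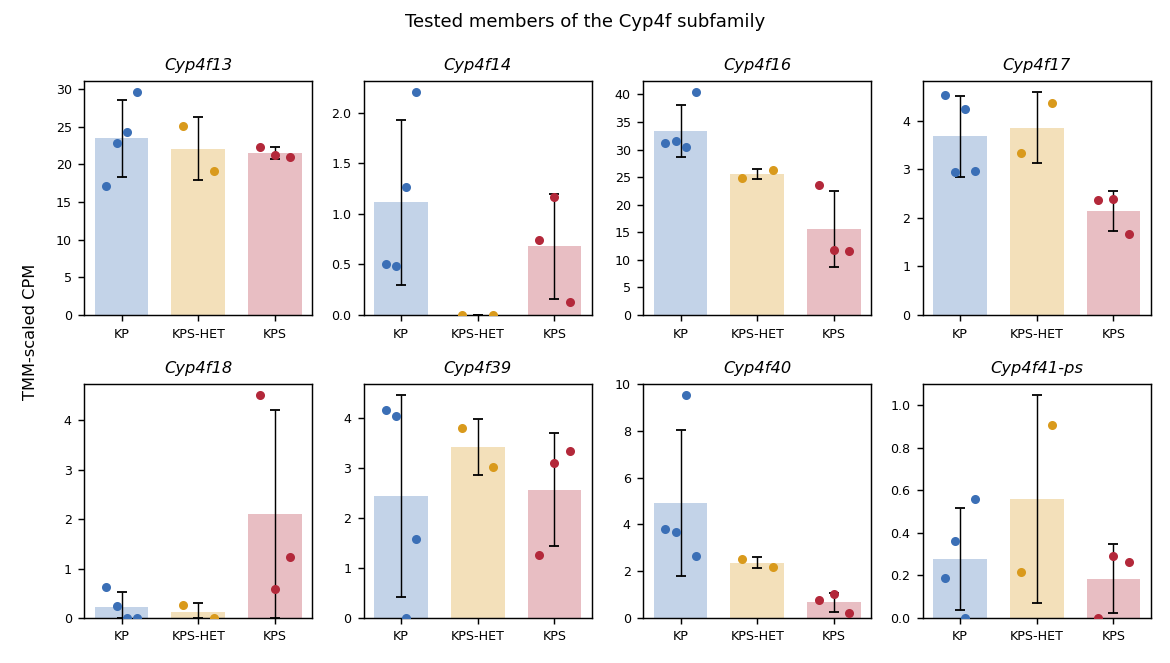
TMM-scaled CPM of the 8 tested Cyp4f members in each library (points) by group, with the mean (bar) and SD (line, cut at 0). Cyp4f16 and Cyp4f40 lie in the order KP, KPS-HET and KPS without overlap, with no call between KPS-HET and KP. Cyp4f13 lies between 17.1 and 29.6 CPM in all libraries.

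The other Cyp4f genes did not follow one pattern. Cyp4f13 stood at 23.5 ± 5.15 CPM in KP (SD, n = 4), at 22.1 ± 4.20 CPM with 1 floxed allele (n = 2) and at 21.5 ± 0.75 CPM in KPS (n = 3), a log2 difference between KPS and KP of -0.13 ± 0.21. Cyp4f17 was lower in every KPS library (1.67 to 2.38 CPM) than in any KP library (2.95 to 4.54 CPM), without passing the test (-0.78 ± 0.43, adjusted p = 0.303). Cyp4f39, known for making the very long omega-hydroxy fatty acids of the skin barrier, and the pseudogene Cyp4f41-ps overlapped between all groups.

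Cyp4f14 had no counts in KPS-HET and was present in both other groups, at 0.50, 0.48, 1.26 and 2.20 CPM in KP and 0.74, 1.17 and 0.13 CPM in KPS. Against a floor of 3 counts over the KPS-HET group, it was at least 15.7-fold lower there than in KP (adjusted p = 0.974). The bound was 9.30-fold without KP replicate 4, 5.69-fold without KPS-HET replicate 1 and 10.0-fold without KPS-HET replicate 2. Cyp4f18, which inactivates leukotriene B4 in mouse neutrophils, gave 0.63, 0.24, 0 and 0 CPM in KP, 0.26 and 0 CPM in KPS-HET and 4.52, 0.58 and 1.23 CPM in KPS (3.30 ± 1.49, adjusted p = 0.207). Its highest library, KPS replicate 1, also had the highest summed neutrophil markers (76.8 CPM over 9 genes, against 17.3 to 61.5 CPM in the other 8 libraries). That library was also highest for macrophage markers without Lyz2 (6576 CPM, against 283 to 1875 CPM). The same held for T and NK cell markers (18.7 CPM, against 3.85 to 6.72 CPM). The part of any of these cells in the Cyp4f18 value was not tested.

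Cyp4f16 and Cyp4f40 are also differently placed for counting. Of the stretches of 50 bases in the Cyp4f16 transcript, 26.5% occur in another P450 transcript, most of them (24.8% of the whole) in Cyp4f37, for which no value was analysed here. For Cyp4f40 the share was 1.80%.

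Cyp2f2, the club cell enzyme that activates naphthalene, was the most abundant member by transcript length. It stood at 453, 747, 743 and 859 CPM in KP, 1667 and 530 CPM in KPS-HET and 145, 250 and 558 CPM in KPS. The highest KPS library lay above the lowest KP library, and the 2 KPS-HET libraries differed from each other by more than the means of KP and KPS. The log2 fold change of -1.14 ± 0.50 (SE) between KPS and KP did not pass the test (adjusted p = 0.20), nor did -1.79 ± 0.57 between KPS and KPS-HET (adjusted p = 0.173). Scgb1a1, the secretoglobin gene whose product is CCSP, stood between 2842 and 4360 CPM in KP, at 5497 and 3982 CPM in KPS-HET and between 1294 and 2526 CPM in KPS (adjusted p = 0.073 in KPS relative to KP). Of 18 club cell markers tested, 3 were higher in KPS than in KP and 1 was lower, against 3.96% and 3.28% of all genes.

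Cyp2s1, an enzyme of epithelia outside the liver, stood at 262, 254, 162 and 171 CPM in KP, 230 and 224 CPM in KPS-HET and 135, 156 and 145 CPM in KPS. All KPS libraries were below all others, with a log2 fold change of -0.55 ± 0.18 that did not pass the test in edgeR (adjusted p = 0.103) and passed in DESeq2 (adjusted p = 0.037). Cyp1b1, an AHR target that oxidises polycyclic hydrocarbons and oestradiol, stood at 63.1, 55.2, 107 and 81.5 CPM in KP, 76.5 and 93.5 CPM in KPS-HET and 60.2, 134 and 148 CPM in KPS. The groups overlapped (0.57 ± 0.31, adjusted p = 0.295). The other AHR targets of the family, Cyp1a1 and Cyp1a2, summed to at most 1.23 CPM in any library and were not tested.

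**Figure D4:**
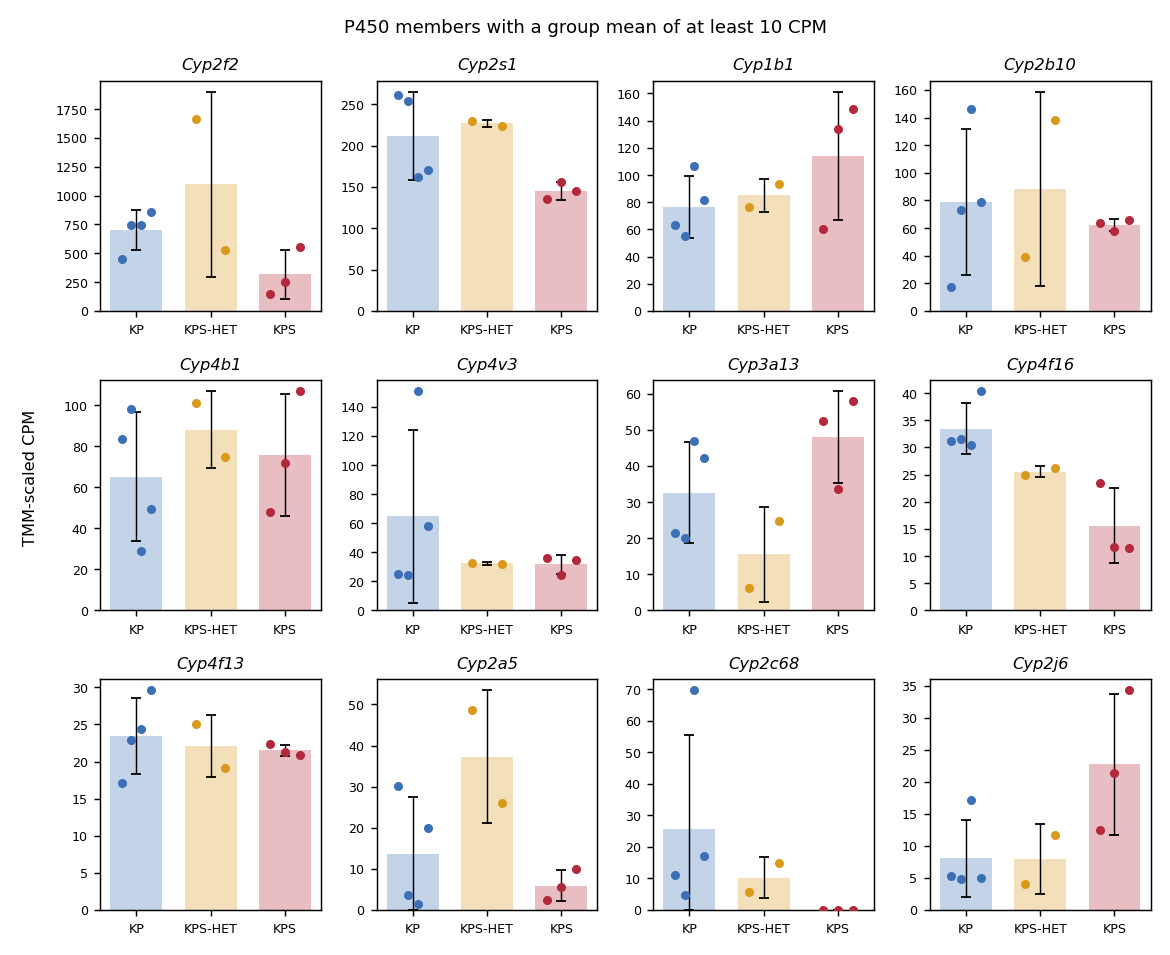
TMM-scaled CPM in each library (points) of the 12 members with a group mean of at least 10 CPM, by group, with the mean (bar) and SD (line, cut at 0). Each panel has its own scale; Cyp2f2 spreads from 145 to 1667 CPM, and all 3 Cyp2c68 points in KPS lie at 0.

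Cyp2b10, a target of the nuclear receptor CAR and also a club cell enzyme in mouse lung, varied mostly within groups. It stood at 17.5, 73.2, 147 and 79.1 CPM in KP, 39.0 and 138 CPM in KPS-HET and 63.4, 57.7 and 65.6 CPM in KPS. The KPS libraries lay inside the range of KP (-0.35 ± 0.60, adjusted p = 0.788). Cyp4b1, a lung enzyme that activates the toxin 4-ipomeanol, ran from 29.1 to 97.9 CPM in KP, from 74.7 to 101 CPM in KPS-HET and from 47.8 to 107 CPM in KPS (0.22 ± 0.40, adjusted p = 0.803).

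Cyp2a5, the mouse coumarin hydroxylase, gave 30.1, 3.61, 1.32 and 19.9 CPM in KP, 48.7 and 25.9 CPM in KPS-HET and 2.31, 5.53 and 9.83 CPM in KPS. Both KPS-HET libraries were above all KPS libraries, and the KP libraries overlapped both groups. KPS differed from KPS-HET by -2.67 ± 1.07 (adjusted p = 0.256) and from KP by -1.23 ± 0.93 (adjusted p = 0.471). Cyp2a4, a testosterone hydroxylase whose transcript is 98.3% identical to that of Cyp2a5, had 1, 0, 0 and 28 counts in KP, 12 and 8 in KPS-HET and none in KPS.

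Cyp2j6, of the fatty acid epoxygenase subfamily Cyp2j, stood at 5.23, 4.76, 17.1 and 5.04 CPM in KP, 4.11 and 11.8 CPM in KPS-HET and 12.4, 21.5 and 34.3 CPM in KPS. Only KP replicate 3 lay within the KPS range. The log2 fold change of 1.50 ± 0.56 did not pass the test (adjusted p = 0.139), and without KP replicate 3 it was 2.15 and passed (adjusted p = 0.036). Cyp2j13 and Cyp2j5 overlapped between KPS and KP.

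Cyp3a13, a steroid and drug oxidising enzyme and the only tested Cyp3a member, stood at 21.4, 19.9, 47.0 and 42.2 CPM in KP, 6.21 and 24.8 CPM in KPS-HET and 52.4, 33.7 and 58.0 CPM in KPS. Both KPS-HET libraries were below all KPS libraries. That difference of 1.65 ± 0.59 did not pass in edgeR (adjusted p = 0.210) and passed in DESeq2 (adjusted p = 0.045). KPS differed from KP by 0.56 ± 0.46 (adjusted p = 0.513). Cyp4v3, the mouse counterpart of a human fatty acid hydroxylase mutated in a retinal dystrophy, stood at 25.4, 24.3, 151 and 57.9 CPM in KP and between 24.4 and 35.9 CPM in the other 5 libraries (-1.03 ± 0.59 in KPS against KP, adjusted p = 0.324). KP replicate 3 was again the highest library.

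Of the low members, Cyp2d22, the closest mouse relative of a human drug oxidising enzyme, ran from 0.18 to 1.13 CPM in KP and from 0.29 to 2.68 CPM in KPS (1.65 ± 0.98, adjusted p = 0.341). Cyp2e1, which oxidises ethanol, ran from 0.69 to 2.41 CPM in KP and from 0.73 to 1.18 CPM in KPS (-0.51 ± 0.65, adjusted p = 0.698). Cyp2r1, a vitamin D 25-hydroxylase, and Cyp2u1, a fatty acid hydroxylase, reached at most 1.54 and 2.02 CPM.

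Levels were also summed by subfamily, without a test. The Cyp2c sum was 34.7 ± 34.3 CPM in KP (SD, n = 4), while KPS-HET had 17.5 ± 6.53 CPM (n = 2) and KPS 3.71 ± 2.31 CPM (n = 3). The highest KPS library (6.27 CPM) lay below the lowest KP library (8.79 CPM). The Cyp4f sum was 69.5 ± 7.65 CPM in KP, 58.3 ± 2.63 CPM in KPS-HET and 45.5 ± 8.80 CPM in KPS, and the 3 groups did not overlap. The Cyp2j sum was 16.1 ± 4.71 CPM in KP, 19.5 ± 3.07 CPM in KPS-HET and 30.5 ± 12.8 CPM in KPS, with overlap. Over all 82 members the sum ran from 1055 to 1567 CPM in KP, from 1253 to 2299 CPM in KPS-HET and from 624 to 1227 CPM in KPS.

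Per transcript length, Cyp2f2 was at 375 ± 93.0 CPM per kb in KP, followed by Cyp2s1 at 67.1 ± 16.8, Cyp2b10 at 41.3 ± 27.6 and Cyp4b1 at 34.4 ± 16.6 CPM per kb (SD, n = 4). The last pair did not differ beyond their spread. Cyp2f2 made up 52.1% to 66.1% of the P450 signal per kb in KP libraries, 78.7% and 50.3% in KPS-HET and 30.3%, 40.5% and 55.5% in KPS. Cyp2c68 reached 5.70% of the signal in KP replicate 3.

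**Figure D5:**
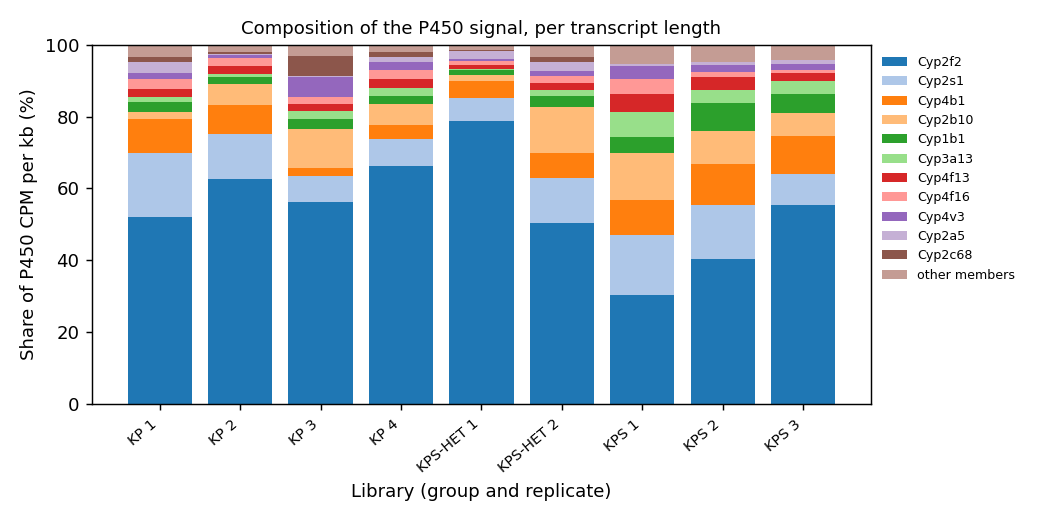
Share of each member in the summed P450 CPM per kb of transcript (y axis, percent) in each of the 9 libraries (x axis), with the members outside the 11 named ones as 1 class. Cyp2f2 takes between 30.3% and 78.7% of the signal, least in KPS replicate 1 and most in KPS-HET replicate 1.

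The loss of 1 floxed allele was examined in KPS-HET against both other groups. In edgeR, 0 of 36 members were called in KPS-HET against KP, where 0% of all genes were called, and 2 had an unadjusted p below 0.05 (Cyp4f14 and Cyp2c44; 4% of all genes). DESeq2 (0.0128% of all genes) and limma-voom (0%) also called 0 members. The median log2 fold change of the members was 0.12 in KPS-HET against KP (-0.01 over all genes) and -0.46 in KPS against KPS-HET (0.01 over all genes). Between KPS and KPS-HET edgeR called 0 members (0.932% of all genes, 0.409% lower), 10 had an unadjusted p below 0.05 (16.5% of all genes), limma-voom called 0 (0.887% of all genes) and DESeq2 called 4 (6.75% of all genes). The DESeq2 calls were Cyp2c67 (adjusted p = 0.0018) and Cyp2c68 (adjusted p = 1.39e-06), lower in KPS, and Cyp3a13 and Cyp4f14 (adjusted p = 0.035), higher in KPS. Against the floor for KPS, Cyp2c68 was at least 239-fold and Cyp2c67 at least 22.5-fold lower than in KPS-HET. For Cyp2c68 the limit was 130-fold without KPS replicate 1, 151-fold without KPS-HET replicate 2 and 393-fold without KPS-HET replicate 1, and for Cyp2c67 it was 12.2-fold without KPS replicate 1. The libraries of KPS and KPS-HET did not overlap in 18 members (50%), 14 lower and 4 higher in KPS. Of all genes, 36.4% did not overlap there, 18.3% lower and 18.1% higher in KPS. The libraries of KPS-HET and KP did not overlap in 6 members (16.7%), 2 higher and 4 lower in KPS-HET. Of all genes, 13.4% did not overlap there (6.77% higher and 6.63% lower).

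Genes that serve or control the P450s were described from further lists, for KPS against KP. Over all genes tested 7.24% were called (3.96% higher and 3.28% lower), the share to set beside each list below. No list was tested against that share. Of 12 electron transfer partners 1 rose and 1 fell (median log2 fold change -0.10). Por, the main electron donor, stood between 267 and 389 CPM in KP and between 293 and 397 CPM in KPS (0.08 ± 0.16, adjusted p = 0.827). Cyb5, cytochrome b5, rose by 0.47 ± 0.12 (adjusted p = 0.049) and Cyb5r3, its reductase, fell by 0.55 on the log2 scale (adjusted p = 0.041). Of 12 genes of haem synthesis and breakdown 1 was called (median 0.06): Alas1, the first enzyme of haem synthesis in most tissues, rose from 121, 172, 132 and 135 CPM to 222, 207 and 227 CPM (adjusted p = 0.036).

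Of 23 tested regulators of P450 genes, 3 fell and none rose (median -0.09), against 3.28% and 3.96% of all genes. They were the oxysterol receptor gene Nr1h3 (-1.36 ± 0.22, adjusted p = 0.0084), Foxa3 (-2.34 ± 0.59, adjusted p = 0.042) and Cebpa (-0.65 ± 0.14, adjusted p = 0.028). Foxa3, a liver and gut endoderm factor, also had its highest value in KP replicate 3, at 57.5 CPM against 7.77 to 26.0 CPM in the other KP libraries. Hnf4a, the factor whose family binds the capitals shown above, stood at 93.5, 59.4, 138 and 88.6 CPM in KP, 27.2 and 49.6 CPM in KPS-HET and 52.1, 65.4 and 43.5 CPM in KPS (-0.82 ± 0.29, adjusted p = 0.122). KPS and KP overlapped in it, and both KPS-HET libraries lay below all KP libraries. Hnf4g, of the same family, went the other way near the limit of detection. It stood at 0, 0, 0 and 0.03 CPM in KP, 0 and 0 CPM in KPS-HET and 0.06, 0.92 and 2.02 CPM in KPS (5.85 ± 1.60, adjusted p = 0.061). The part of these factors in the Cyp2c values was not tested. Ahr, the dioxin receptor, ran from 77.0 to 115 CPM in KP and from 85.8 to 104 CPM in KPS (adjusted p = 0.813). The receptors PXR (Nr1i2) and CAR (Nr1i3) reached at most 0.60 and 2.06 CPM.

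Of 6 AHR targets outside the P450s, 2 fell (median -0.81): the glucuronosyltransferases Ugt1a6a (-0.95 ± 0.22, adjusted p = 0.033) and Ugt1a6b (-0.93 ± 0.24, adjusted p = 0.042), whose transcripts share exons. Of 21 other phase I enzymes 1 rose and 1 fell (median -0.66). Maob, a monoamine oxidase, fell from 159, 102, 103 and 138 CPM in KP to 41.6, 39.0 and 38.2 CPM in KPS (adjusted p = 0.0021), and Xdh, xanthine dehydrogenase, rose (1.22 ± 0.30, adjusted p = 0.042). Of 15 eicosanoid enzymes 1 fell (median 0.06), the cyclooxygenase gene Ptgs1 (-1.80 ± 0.30, adjusted p = 0.0096).

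P450s outside families 1 to 4 numbered 18 in the table and 9 among the genes tested, with 2 called higher and 1 lower in KPS (median 1.53). Cyp24a1, which breaks down active vitamin D, had no counts in KP or KPS-HET and stood at 0.85, 1.41 and 5.35 CPM in KPS (adjusted p = 0.030). Cyp7b1, an oxysterol hydroxylase, ran from 0.25 to 0.52 CPM in KP and from 0.36 to 7.14 CPM in KPS (3.49 ± 0.92, adjusted p = 0.048). Cyp21a1, the steroid 21-hydroxylase, fell from 18.1 to 23.6 CPM in KP to between 0.39 and 4.52 CPM in KPS (-3.15 ± 0.63, adjusted p = 0.020).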

How the data were processed

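Gene expression was measured by RNA sequencing of polyA RNA from sorted lung cancer cells. The authors deposited estimated counts per gene, made with RSEM 1.3.1 and Bowtie 1.2.3 on mm9 per the submitters' processing notes. Not given in the sources used here are the gene annotation, the strand setting and the sort gate, and reads of paralogs, overlapping and antisense genes may be split between them. Groups came from the genotype label, of which 1 allele shared by all groups is not reported here, and replicates were numbered in sample order. Whether libraries came from separate mice is not stated, so p-values measure only the spread between these samples.

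The estimated counts were rounded (a change of at most 0.5) and genes with few of them were dropped by filterByExpr (count of 10, total of 15). Of 23224 genes, 15663 were tested and 7561 were dropped. Differences were tested two-sided with the quasi-likelihood test of edgeR 4.0.16 (R 4.3.3, TMM scaling, 1 coefficient per group, all 9 libraries) with Benjamini-Hochberg adjustment over all genes tested and a threshold of 0.05. Fold changes are log2 with their SE. Where a group had no counts, a bound was taken with 3 counts in all its libraries together. Such bounds cover counting error only, because PCR copies cannot be told from separate molecules. Errors in dividing reads among paralogs are not covered by the bounds either. Alternatives were other scalings, no filter, only the compared groups, DESeq2 1.42.0, limma-voom (limma 3.58.1) and each library left out. The methods were tested on simulated counts.

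By rule, members named were those called in any comparison, those with a group mean of at least 1 CPM and the highest of each subfamily with counts. Outside this rule, Cyp1a2, Cyp2a4, Cyp2c44, Cyp2c70, Cyp4f41-ps and some members holding a motif were also named. Of other lists, up to 4 called genes and Por, Ahr, Nr1i2, Nr1i3 and Hnf4a were named. The members and lists were chosen with earlier results of these data known. Smarca4, Alb, Trf, Tat, Hpd, G6pc, Cps1, Sftpc, Lyz2, Scgb1a1 and Hnf4g were named as checks. Transcript lengths and shared stretches came from GENCODE M21 (75 members matched) and upstream sequences from RefSeq (62 matched), both on GRCm38.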

Additional observations from a re-analysis of the deposited data

Results flagged for a closer look

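In KP, the only group of 4 samples, 1 library stood apart from the others for 6 of 51 named genes with counts in KP. The genes named as checks and the members named outside the rule were not included. The measure was the gap to the nearest library divided by the whole range, above the 95% critical value of Dixon's test. Chance flags about 1 in 20 such groups of normally distributed values, a rate that does not hold for counts near 0. KP replicate 3 was high for Cyp2j6 (ratio 0.962, 17.1 CPM against 5.23 for the next library) and for Cyp4f40 (ratio 0.837, 9.53 against 3.78 CPM). KP replicate 4 was high for Cyp4f16 (ratio 0.891, 40.4 against 31.6 CPM). KP replicate 1 was high for Cyp2c69 (ratio 0.8292, 1.01 against 0.17 CPM). It was also the only KP library with any counts of Cyp2d26 (2 counts, 0.13 CPM) and Cyp2w1 (1 count, 0.06 CPM). The ratio of 1 in both was fixed by the zeros of the other KP libraries.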

How the results depend on the processing

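Members called in KPS against KP numbered 4. Other scalings and no filter left 4, DESeq2 gave 5 (with 2280 genes called in all, against 1134 in edgeR), limma-voom and the fit of only the 2 groups compared gave 2 each, and leaving out 1 library gave 2 to 3. Cyp2c67 was called in 15 of 15 alternatives and Cyp2c68 in 14. Cyp4f16 was called in 6 of 15 and Cyp4f40 in 5. For KPS against KPS-HET, DESeq2 called 4 members (991 genes in all, against 146) and leaving out 1 library gave 0 to 1 (Cyp2c68 without KP replicate 3 or Cyp4f16 without KPS replicate 1). For KPS-HET against KP every alternative gave 0.

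Some directions turned when 1 library was left out, each for a difference that had not passed the test. In KPS against KP, Cyp2b10 ran from -0.70 (without KP replicate 1) to 0.11 (without KP replicate 3). Cyp4b1 ran from -0.15 (without KPS replicate 3) to 0.45 (without KP replicate 2), and was -0.05 without KP replicate 3. In KPS-HET against KP, Cyp2f2 ran from -0.39 (without KPS-HET replicate 1) to 1.25 (without KPS-HET replicate 2), against 0.65 with all libraries.

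Called genes per list in KPS against KP changed as follows. Electron transfer partners gave 1 under RLE scaling, upper quartile scaling and no filter. Without the filter, other phase I enzymes gave 1, hepatocyte markers 2 and macrophage markers 1 (4 were called in the fit reported, all higher in KPS). In the fit of 2 groups, AHR targets gave 1, other phase I enzymes 1 and macrophage markers 7. With limma-voom, other phase I enzymes gave 1, hepatocyte markers 2 and macrophage markers 1. With DESeq2, haem genes gave 2, other phase I enzymes 5, eicosanoid enzymes 4, hepatocyte markers 9, club cell markers 9 and macrophage markers 11. Leaving out 1 library gave 0 to 1 for electron transfer partners and haem genes, 1 to 3 for regulators and eicosanoid enzymes, 0 to 2 for AHR targets, 1 to 2 for other phase I enzymes, 0 to 3 for other P450 families, 2 to 7 for hepatocyte markers, 2 to 6 for club cell markers and 1 to 7 for macrophage markers. The causes were not tested.

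The mean of Cyp2s in KPS-HET was 232.5 CPM under upper quartile scaling and 236 under plain CPM, and that of Cyp4v was 33.2 and 33.7. No paired or blocked analysis was made, because the groups are different genotypes and the labels give no batch or replicate numbers. With 2 to 4 libraries a group, and members of few counts, differences of moderate size could be missed.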
